A study of Homo sapiens with 12 samples.

Results

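In A375 cells, a human melanoma line, 3 libraries treated with OF1 together with XL413 (the combination) were set against 3 treated with XL413 alone. Both groups had XL413, and OF1 was the treatment in which they differed. These 6 of the study's 12 libraries were taken by their labels, and all 15353 genes with enough counts were tested. Cells had OF1 at 1 µM with XL413 at 1 µM, or XL413 at 1 µM alone, each for 24 h. The other 6 libraries, 3 with OF1 at 1 µM and 3 with DMSO and no inhibitor, also for 24 h, give the OF1 effect without XL413. They do not enter the means of the first comparison. All 12 libraries together set the gene filter and the spread of each gene behind the p-values of both comparisons. RNA was selected for poly(A) tails and the libraries kept strand information. The labels name the 3 libraries of each treatment biological replicates without saying that they came from separate cultures, and p-values here speak only for the spread among them.

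XL413 inhibits CDC7, the kinase that starts DNA replication by phosphorylating the MCM helicase. OF1 is a bromodomain ligand for the proteins of BRPF1, BRPF3 and BRD1 (or BRPF2), which as scaffolds hold histone acetyltransferases at chromatin. In the integrated stress response, kinases that sense amino acid shortage, unfolded protein, haem shortage or viral RNA phosphorylate a translation initiation factor, after which most translation slows while the transcription factor ATF4 is translated. ATF4 pairs with C/EBP proteins and raises genes for amino acid synthesis, amino acid uptake and the loading of tRNAs.

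Total counts ran from 30499559 to 36062138 over the 12 libraries, and the common biological coefficient of variation was 0.049. The melanocyte lineage regulators SOX10 and MITF were present in every library, with SOX10 at 318, 323 and 348 CPM (counts scaled to library size) in the combination and 368, 357 and 332 CPM in XL413. The pigment enzyme gene TYR was listed at 0 in all 12 libraries, and DCT, MLANA and TRPM1 did not exceed 0.24 CPM in any of them. Transcripts of skeletal muscle and of fibroblasts were also present, and combination replicates 2 and 3 stood apart from the rest in them. The summed level of the 43 muscle fibre genes was 151, 50.5 and 68.9 CPM in combination replicates 1, 2 and 3, against 413, 305 and 197 CPM in XL413. On the first principal component of the 1000 most variable genes, which held 29.5% of the variance, combination replicates 2 and 3 were at -29.6 and -26.7 and replicate 1 at -5.00. Results that touch these libraries are therefore given also with replicate 1 alone standing for the combination.

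Genes of amino acid synthesis, tRNA loading, amino acid uptake and the ATF4 stress response were higher in the combination than in XL413. A larger set was lower, in which muscle, collagen and matrix genes had the largest folds. The muscle fibre genes had a median log2 change of -1.99 with all 3 combination libraries, -1.37 with replicate 1 alone and 0.58 for OF1 against DMSO. Whether OF1 lowered them was not tested apart from the shift of combination replicates 2 and 3. By edgeR's quasi-likelihood test, at a Benjamini-Hochberg adjusted p under 0.05, 163 of 15353 genes rose (1.06% of those tested) and 361 fell (2.35%), 524 in all (3.41%). The changes were small, with a median log2 change of 0.26 among the risen and -0.38 among the fallen, and 7 genes rose and 77 fell by more than 2-fold. The 3 combination libraries did not overlap the 3 XL413 libraries in any of the 524 genes, and of all those tested 2980 (19.4%) were free of overlap, 1381 higher (8.99%) and 1599 lower (10.4%). With replicate 1 alone for the combination 80 genes rose (0.506% of the 15801 tested in that fit) and 75 fell (0.475%). Of the 163 risen genes 66 passed again in that setting, and of the 361 fallen genes 53 did. A fit with the mean log2 level of the muscle fibre genes as a covariate called 27 risen (0.176%) and 6 fallen genes (0.0391%). With each of the 6 compared libraries left out in turn, 74 of the risen genes (0.482% of those tested) and 65 of the fallen (0.423%) passed every time. The 33 genes of the covariate fit are among these and also passed with replicate 1 alone, and they are called here the 33 stable genes.

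The enzymes that make amino acids and carry single-carbon units were raised most uniformly. Of 15 such enzymes 13 rose, none fell and GOT1 and ALDH18A1 did not pass, with a median log2 change of 0.50 against 0.01 for all genes tested. The muscle covariate left 10 of these 13 calls, at a list median of 0.46. ASNS (asparagine synthetase, chromosome 7, 97851677 to 97928441 in GRCh38.p14) was at 239, 243 and 244 CPM in the combination and 133, 137 and 136 CPM in XL413. The spread within each group was far smaller than the gap. ASNS rose 1.79-fold, by 0.84 ± 0.03 (SE) in log2, with an adjusted p of 4.31e-10. The serine pathway starts from a glycolytic intermediate and runs through PHGDH, PSAT1 and PSPH. PHGDH (chromosome 1, 119711934 to 119744215), its first enzyme, stood at 430, 473 and 472 CPM in the combination and at 323, 330 and 320 CPM in XL413, 1.41-fold higher. PSAT1 (chromosome 9, 78297125 to 78330093), the aminotransferase of the next step, had 536, 534 and 538 CPM in the combination and 348, 348 and 360 CPM in XL413. It rose by 0.61 ± 0.03 in log2, with an adjusted p of 5.99e-09, and the groups were clear of each other for both genes. PSPH, the phosphatase of the last step, rose by 0.36 ± 0.06 with all 3 libraries and missed the threshold with replicate 1 alone, at 0.30 (adjusted p = 0.0875).

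Serine feeds the folate cycle in mitochondria, and the enzymes of that route rose as well. SHMT2, which splits serine to glycine, rose 1.26-fold, MTHFD2, a folate dehydrogenase, 1.31-fold and ALDH1L2, which releases the folate-bound carbon as carbon dioxide, 1.55-fold. MTHFD2 was even among its libraries, with 380, 386 and 375 CPM in the combination and 289, 292 and 293 CPM in XL413. MTHFD1L, which releases formate, rose by 0.16 ± 0.03 and did not pass with replicate 1 alone (0.19, adjusted p = 0.068). PYCR1, the last enzyme of proline synthesis, rose by 0.52 ± 0.05, while ALDH18A1, the first enzyme of that route, was at 172, 179 and 178 CPM in the combination and 182, 180 and 181 CPM in XL413 (log2 change -0.04 ± 0.03, adjusted p = 0.575). CBS and CTH, the pair that turns homocysteine into cysteine, rose by 0.54 ± 0.05 and 0.62 ± 0.09. PCK2, the mitochondrial phosphoenolpyruvate carboxykinase, rose 1.65-fold and GPT2, the mitochondrial alanine aminotransferase, 1.3-fold. Of the 13 risen enzymes all but PSPH and MTHFD1L passed with replicate 1 alone.

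**Figure D1:**
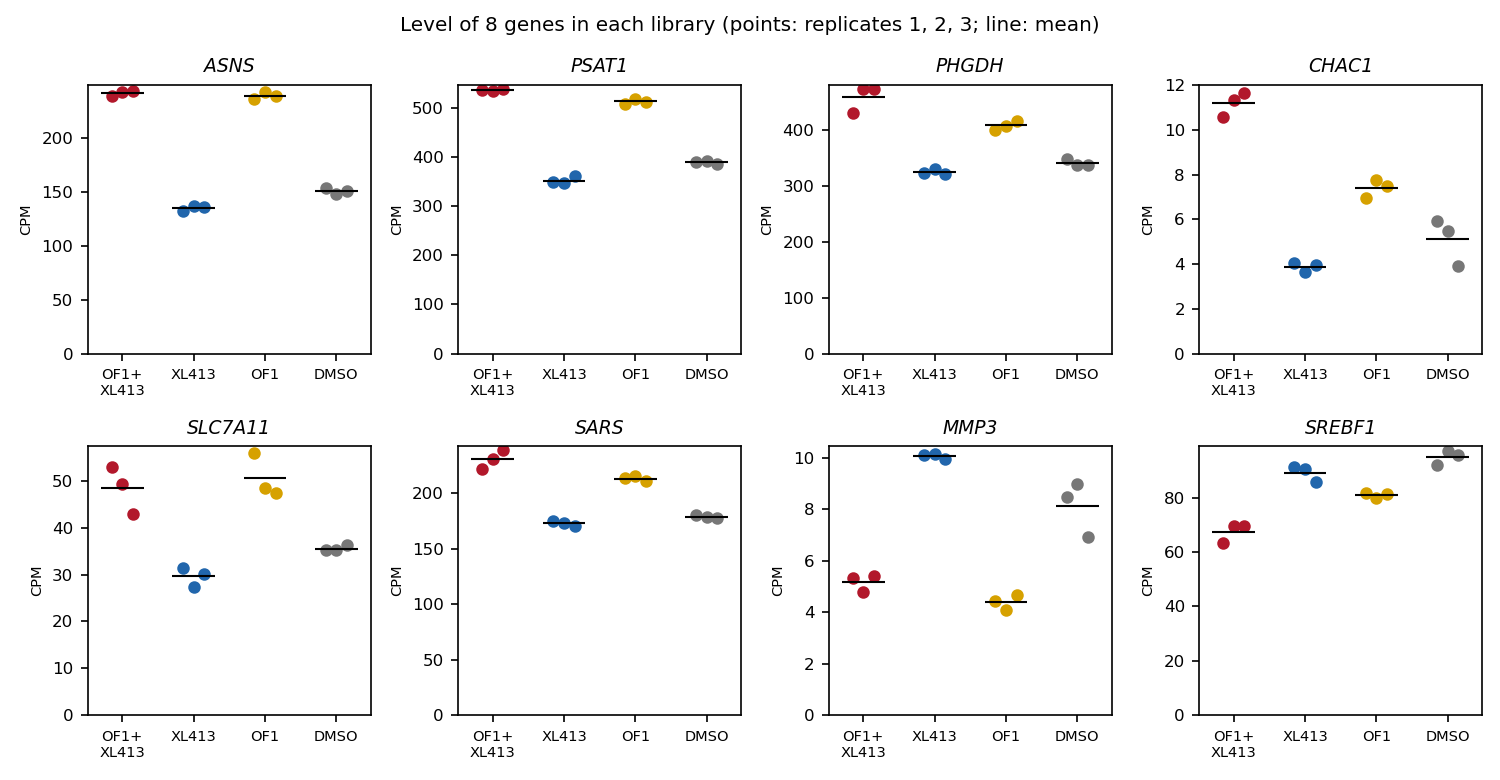
Level of 8 genes in each of the 12 libraries, in CPM on linear axes that start at 0, with points for replicates 1, 2 and 3 and a line at the mean of each treatment. In the 6 genes from ASNS to SARS the combination libraries lie above all XL413 libraries, and in MMP3 and SREBF1 below them.

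Among the transcription factors and feedback regulators of the stress response 7 of 11 rose and none fell, with a median log2 change of 0.30. CEBPG, NUPR1 and TRIB3 were the 3 of these that passed with the muscle covariate, at a list median of 0.29. ATF4 itself (chromosome 22, 39520559 to 39522686) was at 375, 373 and 416 CPM in the combination and 308, 317 and 312 CPM in XL413, a rise of 0.31 ± 0.04 on the log2 scale (adjusted p = 0.000545). Much of ATF4's control is by translation, which these libraries do not measure. CEBPG, a C/EBP partner of ATF4, stood at 44.4, 43.2 and 41.0 CPM in the combination against 31.5, 29.9 and 31.9 CPM in XL413, a 1.38-fold rise. NUPR1, a small stress-induced chromatin protein, had 12.5, 12.5 and 13.8 CPM in the combination against 7.08, 7.25 and 7.50 CPM in XL413 and rose 1.78-fold. TRIB3, a pseudokinase that restrains ATF4, and PPP1R15A, the phosphatase subunit that ends the response, both rose 1.23-fold. DDIT3 (CHOP, 0.32 ± 0.08) and JDP2 (0.54 ± 0.10) rose with all libraries and missed the threshold with replicate 1 alone, at nearly the same size (0.32 and 0.53, adjusted p = 0.17 and 0.104). ATF3, ATF5, CEBPB and KLHL24 did not pass, with log2 changes from -0.19 to 0.17.

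Downstream effectors of the response held the largest folds among the risen list members. CHAC1 (chromosome 15, 40953471 to 40956512), which degrades glutathione, was at 10.6, 11.4 and 11.6 CPM in the combination and 4.03, 3.64 and 3.98 CPM in XL413. The lowest combination library exceeded the highest XL413 library by more than the range within either group, and the rise was 2.87-fold (log2 change 1.52 ± 0.12, adjusted p = 4.85e-06). ADM2, a peptide hormone of the calcitonin family, rose 2.53-fold, with 4.91, 4.46 and 4.99 CPM in the combination and 1.54, 1.56 and 2.52 CPM in XL413. INHBE, an inhibin subunit, was near the floor of the measurement, at 1.37, 1.07 and 1.62 CPM in the combination and 0.145, 0.0639 and 0.224 CPM in XL413. Its fold of 8.94 rests on few counts and depends on how they are moderated. SESN2, which signals leucine shortage to mTORC1, rose by 0.42 ± 0.05, FAM129A by 0.42 ± 0.04, the cytokine GDF15 by 0.47 ± 0.08, the secreted glycoprotein STC2 by 0.25 ± 0.05 and the tRNA exporter XPOT by 0.21 ± 0.04. In all 8 of 15 tested effectors rose and none fell (median 0.32), and 7 did not pass, DDIT4, EIF4EBP1, VEGFA, VLDLR, GRB10, GADD45A and CDSN. FGF21, the remaining member of the list, had too few counts to test. Of the 8 risen effectors 3 passed with the muscle covariate, CHAC1, INHBE and FAM129A, at a list median of 0.32. GDF15 is also a p53 target and is the only one of the 8 that missed the threshold with replicate 1 alone (0.41, adjusted p = 0.076).

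Amino acid carriers divided, with 7 of 16 tested risen, none fallen and 9 not passing (median 0.10), while SLC7A3 had too few counts to test. SLC7A11, SLC6A9 and SLC1A4 were the 3 that passed with the muscle covariate, at a list median of 0.08. SLC7A11, the cystine importer, averaged 48.5 ± 5.07 CPM in the combination and 29.6 ± 2.14 CPM in XL413 (SD, n = 3 each), a 1.63-fold rise without overlap between libraries. SLC3A2, the heavy chain with which SLC7A11 and SLC7A5 form their transporters, rose 1.23-fold and SLC7A5, the leucine carrier, 1.17-fold. The glycine carrier SLC6A9 rose 1.52-fold, the neutral amino acid carrier SLC1A4 1.4-fold and the glutamine carriers SLC38A1 and SLC1A5 by 0.33 ± 0.05 and 0.19 ± 0.04 on the log2 scale. Values for those that did not pass included SLC7A1, the arginine carrier, at 0.12 and SLC38A2 at 0.07. SLC7A5 and SLC1A5 missed the threshold with replicate 1 alone (adjusted p = 0.062 and 0.0818).

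The tRNA synthetases, which attach each amino acid to its tRNA, were listed as cytosolic or mitochondrial, with no gene in both lists. Of 20 genes listed as cytosolic 12 rose and none fell, with a median log2 change of 0.18. Of the 17 listed as mitochondrial none passed in either direction, with a median of 0.02. SARS, the seryl enzyme, was at 222, 231 and 239 CPM in the combination and 175, 173 and 171 CPM in XL413, a rise of 0.42 ± 0.03 (adjusted p = 3.99e-06). GARS (glycyl) and WARS (tryptophanyl) rose by 0.37 ± 0.03 each, MARS (methionyl) by 0.32 ± 0.03 and YARS (tyrosyl) by 0.31 ± 0.03, and AARS, CARS, EPRS, IARS, LARS, NARS and TARS by 0.17 to 0.31. The median log2 change of the cytosolic list was 0.20 with replicate 1 alone and 0.17 with the muscle covariate. SARS, GARS, WARS, MARS and YARS were the 5 of the 12 that passed with the covariate. In the main fit DARS, HARS, KARS, QARS, RARS, VARS, FARSA and FARSB did not pass. RARS, the arginyl enzyme, had 315, 314 and 309 CPM in the combination and 318, 316 and 322 CPM in XL413, and its log2 change was -0.03 ± 0.03 (adjusted p = 0.687). The difference between the cytosolic and mitochondrial lists was not tested.

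**Figure D2:**
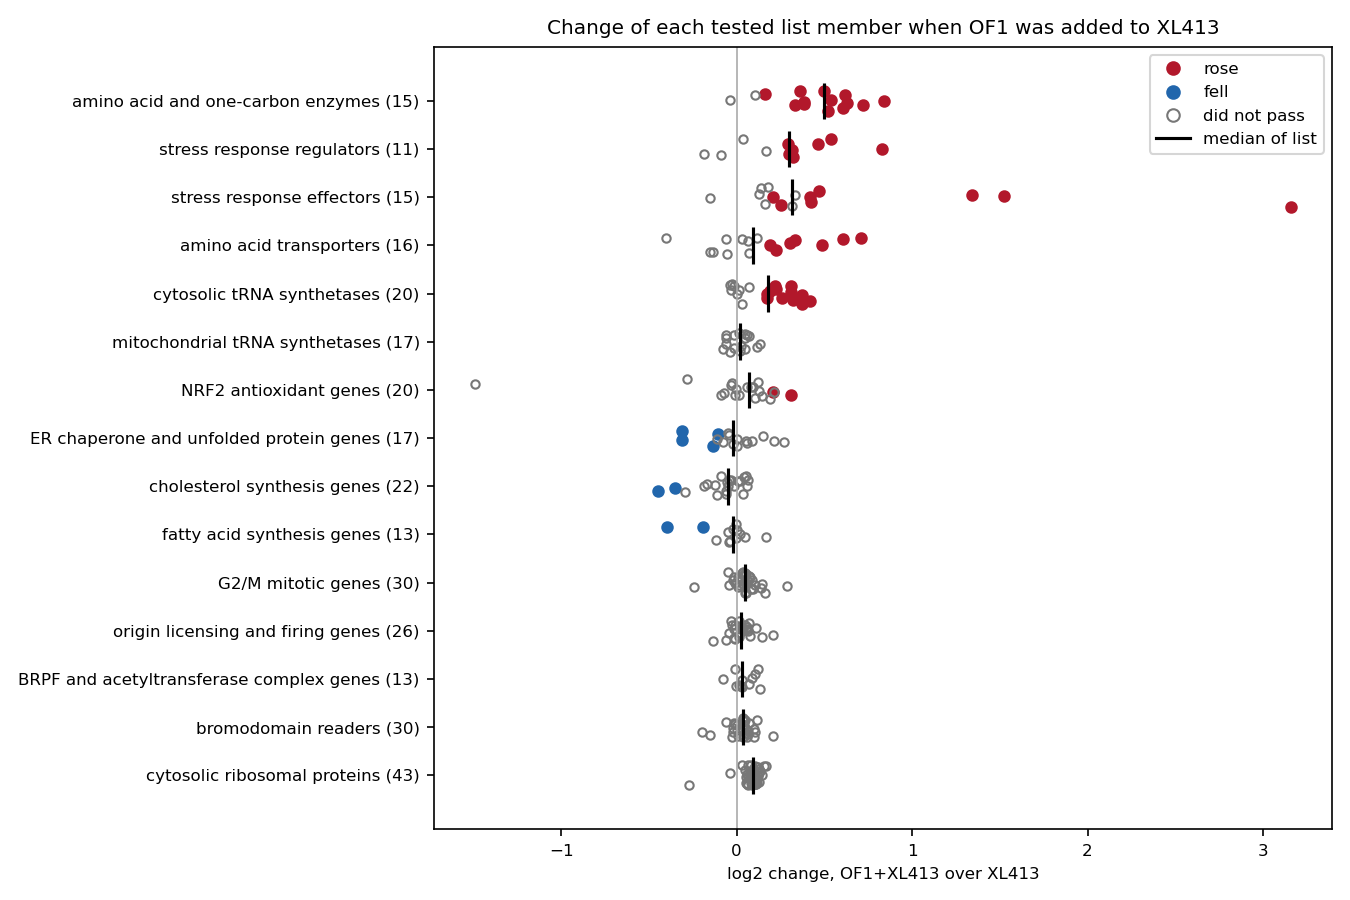
Log2 change, OF1+XL413 over XL413, of each tested member of 15 gene lists (number tested in brackets), with filled points for genes that passed, open points for those that did not and a bar at the list's median. Risen genes lie in the upper 5 lists and, as 2 genes, among the NRF2 genes, and the cell cycle, chromatin and ribosomal lists hold no gene that passed.

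Promoter sequences from RefSeq (GRCh38.p14) ran from 250 bases before to 50 after an annotated start site of each gene. That site need not be the outermost: for ASNS, MTHFD1L, SLC3A2, SLC38A1 and TARS it lay inside the gene's range. Both strands were searched for the C/EBP-ATF response element, spelled TGATGNAAN, to which ATF4 binds with a C/EBP partner. A match is a description of the letters and not of binding. Of all 35116 windows 3.61% held one, and of the 11918 windows of tested genes 1.81%. Among risen genes 13 of 128 with a window did (10.2%), and among fallen genes 3 of 264 (1.14%). Of the stress and amino acid list members with a window, 10 of 34 risen ones held a match (29.4%), and 3 of 23 that did not pass, GOT1, ATF3 and SLC7A1 (13.0%). The 10 were ASNS, CHAC1, MTHFD1L, SLC3A2, SLC38A1 and the synthetase genes AARS, CARS, IARS, NARS and TARS. Among the stable risen genes 2 of 16 with a window held a match (12.5%), ASNS and CHAC1. In CHAC1, AARS, CARS and IARS alike the match lay on the strand opposite to the gene, so that the letters along the gene were GTTGCATCA. A sterol response element was also searched for, with letters that can overlap the first motif, and was in 0.154% of all windows, 1 of 128 risen genes and 0 of 264 fallen genes. The windows of ASNS (chr7:97872359-97872658, minus strand), CHAC1 (chr15:40953221-40953520, plus strand) and IARS (chr9:92293648-92293947, minus strand) are shown because their genes rose and they hold a match, which begins at position -68, -210 and -14 from the start. That of PSAT1 (chr9:78296875-78297174, plus strand), which also rose, is shown because it holds none. Each reads 5′ to 3′ along the gene, with the match in capitals.
ASNS: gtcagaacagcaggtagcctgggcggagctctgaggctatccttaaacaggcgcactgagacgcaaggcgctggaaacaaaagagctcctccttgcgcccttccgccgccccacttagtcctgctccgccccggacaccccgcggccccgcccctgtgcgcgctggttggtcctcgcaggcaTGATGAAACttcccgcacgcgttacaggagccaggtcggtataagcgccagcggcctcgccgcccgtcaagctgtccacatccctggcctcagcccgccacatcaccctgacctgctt
CHAC1: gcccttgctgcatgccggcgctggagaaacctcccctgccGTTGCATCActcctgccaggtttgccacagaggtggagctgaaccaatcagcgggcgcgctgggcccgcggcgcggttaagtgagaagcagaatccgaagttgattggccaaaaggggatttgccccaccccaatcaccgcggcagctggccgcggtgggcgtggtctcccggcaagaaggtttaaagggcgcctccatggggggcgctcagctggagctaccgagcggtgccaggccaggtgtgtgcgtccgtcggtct
IARS: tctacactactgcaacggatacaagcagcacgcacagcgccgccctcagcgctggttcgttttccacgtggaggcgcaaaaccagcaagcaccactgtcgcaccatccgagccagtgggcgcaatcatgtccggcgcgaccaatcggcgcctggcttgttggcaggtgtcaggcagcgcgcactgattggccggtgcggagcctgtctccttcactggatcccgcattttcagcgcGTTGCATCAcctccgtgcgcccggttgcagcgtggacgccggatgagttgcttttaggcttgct
PSAT1: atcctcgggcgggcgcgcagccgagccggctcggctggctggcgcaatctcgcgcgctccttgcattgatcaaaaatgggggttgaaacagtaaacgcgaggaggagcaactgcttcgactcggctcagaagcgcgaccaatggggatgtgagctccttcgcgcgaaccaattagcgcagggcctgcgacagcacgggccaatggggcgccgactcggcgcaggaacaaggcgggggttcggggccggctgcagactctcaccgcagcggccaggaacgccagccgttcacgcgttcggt

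Other stress lists had medians of 0.07 (NRF2 antioxidant genes), -0.02 (endoplasmic reticulum chaperone genes) and -0.02 (heat shock genes), though single members passed. Of all genes tested 1.06% rose and 2.35% fell. Of 20 NRF2 antioxidant genes NQO1 (1.24-fold) and TXNRD1 (1.15-fold) rose, and 18 did not pass, the haem oxygenase gene HMOX1 among them. Of 17 chaperone and unfolded protein genes of the endoplasmic reticulum none rose and 4 fell, HSPA5 by 0.11, HSP90B1 by 0.13 and CRELD2 and SDF2L1 by 0.31 each on the log2 scale. HSPA5, the chief chaperone of that compartment, stood at 797, 787 and 777 CPM in the combination and 851, 849 and 839 CPM in XL413. The 4 calls were lost on leaving out 2 to 4 of the 6 libraries in turn, and with replicate 1 alone SDF2L1 passed. Of 14 heat shock genes BAG3 and HSPB1 fell by 0.19 and 0.37. BAG3 lost its call in 3 of the 6 fits that leave out a compared library, and HSPB1 in 4. With replicate 1 alone BAG3 was at -0.21 and HSPB1 at -0.37. Of 24 p53 targets GDF15 and PMAIP1 rose, and of 30 interferon-stimulated genes none passed. The interferon list had a median of 0.05 with all libraries and 0.22 with replicate 1 alone.

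Genes outside the fixed lists also rose. OSCAR (chromosome 19, 54094668 to 54100803), an immunoglobulin-like receptor of myeloid cells, was at 3.11, 3.25 and 3.49 CPM in the combination and 1.97, 1.12 and 1.40 CPM in XL413, 2.18-fold higher. It missed the threshold with replicate 1 alone (log2 change 1.05, adjusted p = 0.0524). IFRD1, ESM1 and SEL1L3, at log2 changes of 0.37, 0.42 and 0.45, were the other stable risen genes that belong to none of the stress and amino acid lists. ESM1, a secreted proteoglycan, had 60.4, 59.6 and 59.5 CPM in the combination and 44.8, 44.6 and 45.0 CPM in XL413, and these 3 names were chosen after their values were seen. The signal recognition particle RNA genes RN7SL1 and RN7SL2 rose by 0.74 ± 0.11 and 0.72 ± 0.10. They are near-identical copies that share reads, and such RNA has no regular poly(A) tail, so their values are uncertain.

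Of the 361 fallen genes 6 were stable. MMP3 (stromelysin, chromosome 11, 102835801 to 102843609), a protease that cleaves matrix proteins, was at 5.34, 4.79 and 5.42 CPM in the combination and 10.1, 10.2 and 9.97 CPM in XL413. No combination library came near an XL413 library, and the fall was 0.96 ± 0.10 on the log2 scale (adjusted p = 6.01e-05). C3, the central complement protein, had 44.6, 44.0 and 43.8 CPM in the combination and 60.0, 56.9 and 60.7 CPM in XL413, a fall of 0.42 ± 0.04. SREBF1 (chromosome 17, 17811334 to 17836986), the master regulator of fatty acid synthesis genes, stood at 63.5, 69.6 and 69.5 CPM in the combination and 91.3, 90.4 and 85.7 CPM in XL413. Of the 13 fatty acid synthesis genes SREBF1 (-0.40 ± 0.04) and the desaturase SCD (-0.19 ± 0.03) fell and 11 did not pass. With replicate 1 alone SCD was at -0.13. Of 22 cholesterol synthesis genes INSIG1 and STARD4 fell by 0.35 and 0.45 and 20 did not pass. With replicate 1 alone neither passed, at -0.34 for INSIG1 (adjusted p = 0.0824) and -0.28 for STARD4 (adjusted p = 0.342). The carboxypeptidase CPA4, the caveolar coat protein CAV1 and the methylesterase PPME1 fell by 0.38 ± 0.03, 0.34 ± 0.03 and 0.31 ± 0.03. CAV1 had 365, 352 and 354 CPM in the combination and 450, 444 and 459 CPM in XL413. Of 17 AXL-high state genes CAV1, LOXL2 and TGFBI fell. TGFBI lost its call in 5 of the 6 fits that leave out a library and was at -0.20 with all of them and -0.08 with replicate 1 alone (adjusted p = 0.417), and LOXL2 lost its call in 2. CA9, a hypoxia-induced carbonic anhydrase, fell 3-fold at a low level, with 0.714, 0.589 and 0.561 CPM in the combination and 1.77, 2.04 and 1.79 CPM in XL413.

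The fallen genes of largest fold were those of contractile muscle, which are not characteristic of the melanocyte lineage. Above an average log2 CPM of 1 these were MYBPH, TNNT3, TNNI1, MYLPF, MYH8, MYL4, MYH7, CASQ2 and TNNC1, with PRUNE2, which serves no sarcomere, at log2 changes from -2.77 to -2.05. MYH7 (chromosome 14, 23412740 to 23435660), a slow myosin heavy chain, was at 3.85, 0.757 and 1.56 CPM in the combination and 14.6, 9.58 and 5.74 CPM in XL413. The levels varied widely within both groups, and in the DMSO libraries, which had no inhibitor, MYH7 was at 4.41, 7.13 and 12.8 CPM. Of 41 tested muscle fibre genes 21 fell (median -1.99), and with replicate 1 alone none passed (median -1.37). The 43 listed genes summed to 50.5 to 151 CPM in the combination, 197 to 413 in XL413, 190 to 426 in OF1 and 135 to 342 in DMSO. None was at 0 in all 12 libraries, and 38 were counted in all 6 libraries compared. In bulk RNA, fewer cells of a type and less RNA per cell cannot be told apart. The 10 genes lost their calls on leaving out 3 or 4 of the 6 libraries, one at a time. The muscle covariate, which is made from the muscle fibre genes, says nothing of their own changes.

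Muscle progenitor genes and fibroblast markers were low in combination replicates 2 and 3. Of 13 tested progenitor genes MYOG, MYF6, MEF2C, CDH15, CAV3 and IGF2 fell, and none passed with replicate 1 alone. IGF2, a growth factor, was at 50.6, 14.1 and 16.9 CPM in the combination and 62.3, 70.6 and 66.6 CPM in XL413, so that replicate 1 lay near the XL413 libraries. The 14 progenitor genes summed to 88.0 to 347 CPM in the combination and 422 to 475 CPM in XL413. Of 12 fibroblast markers COL1A1, COL1A2, COL3A1, THY1, POSTN and MFAP5 fell, of which the 3 collagens passed with replicate 1 alone. The 15 listed markers summed to 68.0 to 171 CPM in the combination and 248 to 295 CPM in XL413. COL1A1 (chromosome 17, 50184101 to 50201631), the main chain of type I collagen, stood at 52.7, 19.4 and 28.4 CPM in the combination and 113, 97.1 and 92.4 CPM in XL413. All 3 combination libraries were below the XL413 libraries. In log2 the change was -1.60 ± 0.23 with all libraries, at an adjusted p of 0.00127, and -0.93 with replicate 1 alone, at an adjusted p of 0.00158. With the muscle covariate it was -1.06 (adjusted p = 0.231).

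**Figure D3:**
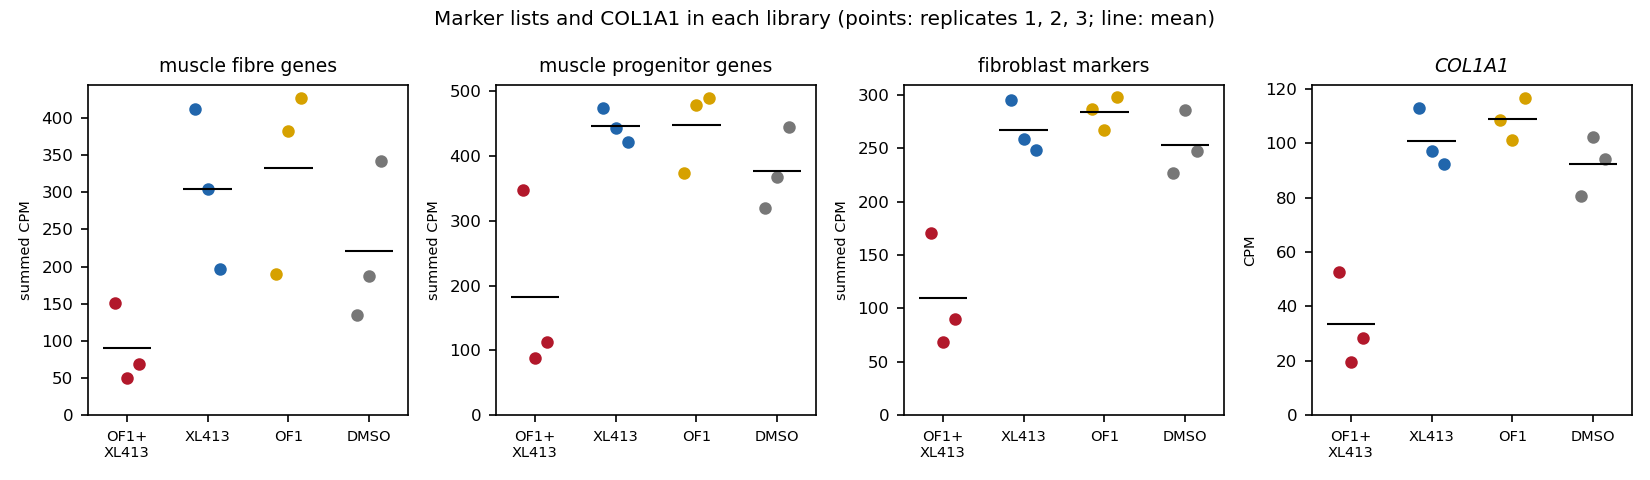
Summed level of the muscle fibre, muscle progenitor and fibroblast lists, and the level of COL1A1, in each library in CPM on linear axes from 0, with points for replicates 1, 2 and 3 and a line at the mean. The combination libraries lie below all XL413 libraries in all 4 panels, with replicate 1 above replicates 2 and 3 and within the DMSO range for the muscle fibre and progenitor lists.

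Matrix genes of wider expression fell less. Of 23 collagen chains 10 fell, with 4 passing with replicate 1 alone, and the basement membrane chain COL4A1 was at 212, 205 and 198 CPM in the combination and 231, 231 and 239 CPM in XL413 (log2 change -0.19). COL5A2 was at -0.24 both with all libraries and with replicate 1 alone. Of 27 matrix and TGF-beta target genes 13 fell, and with replicate 1 alone 3 did, SPARC, LOXL2 and TGFB1. TGFB1, the cytokine that induces many of them, had 61.0, 58.6 and 63.0 CPM in the combination and 81.2, 79.5 and 74.0 CPM in XL413, with a log2 change of -0.36 in both settings. Of 17 matrix proteases and inhibitors MMP3, MMP2, MMP1 and TIMP2 fell, and MMP2 was even among the combination libraries at 172, 174 and 174 CPM, against 215, 209 and 195 CPM in XL413. TIMP2, at -0.15, lost its call in 4 of the 6 fits that leave out a compared library. The part of the muscle and fibroblast transcripts in these falls was not tested beyond the covariate and replicate 1 values. Median GC content was 56.1% for the fallen genes, 47.5% for the risen and 48.4% for all tested. It was 57.8% for the fallen genes that also passed with replicate 1 alone. The level of GC-rich against GC-poor genes was -0.16, -0.03 and 0.08 (log2) in combination replicates 1, 2 and 3 and 0.07, 0.09 and -0.01 in XL413. It was -0.13, -0.07 and 0.03 in OF1 replicates 1, 2 and 3 and 0.05, 0.04 and 0.03 in DMSO. Combination replicate 1 was thus the lowest of these libraries. The part of GC content in the falls, with all libraries, with replicate 1 alone or for OF1 against DMSO, was not tested.

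**Figure D4:**
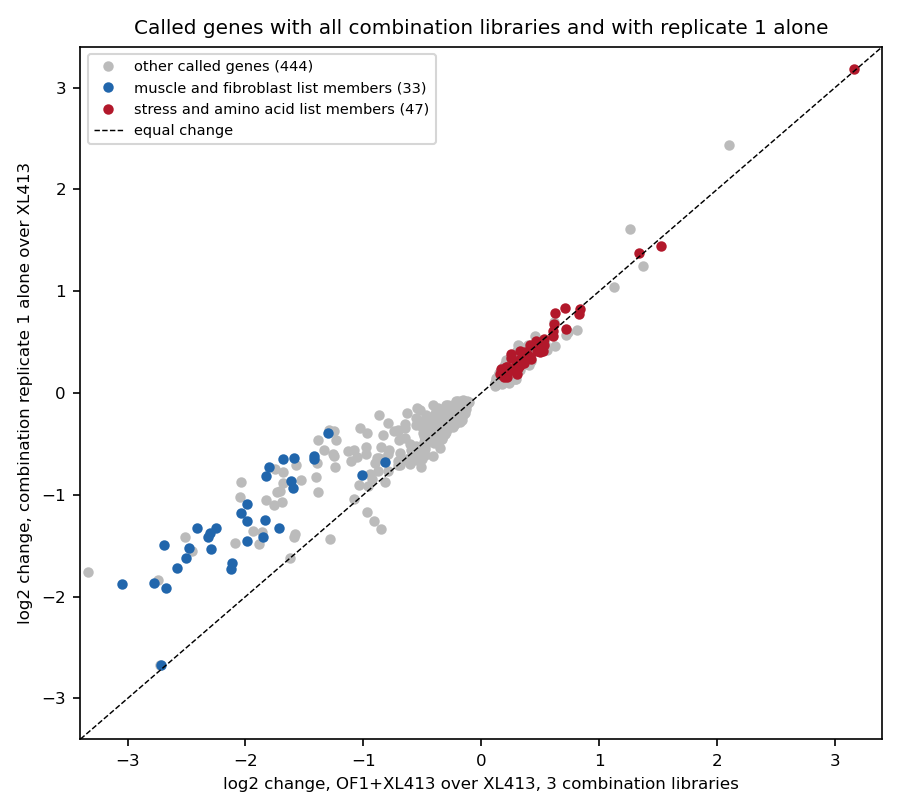
Log2 change over XL413 of the 524 called genes with all 3 combination libraries (horizontal axis) and with combination replicate 1 alone (vertical axis), with LRRN1 and PLAC9 outside the range shown. Risen stress and amino acid genes lie along the line of equal change, and muscle and fibroblast genes lie above it, with smaller falls in replicate 1.

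The genes that encode the targets of OF1 and XL413 did not pass. CDC7 was at 23.6, 23.6 and 23.4 CPM in the combination and 22.4, 24.5 and 22.7 CPM in XL413, and its log2 change was 0.02 ± 0.05. BRPF1, BRD1 and BRPF3 had log2 changes of -0.01 ± 0.04, -0.08 ± 0.06 and 0.03 ± 0.04, and no member of the list of 13 BRPF and acetyltransferase complex genes passed (median 0.03). DBF4, the partner of CDC7, was at 0.06 and MCM2, its substrate, at -0.01. None of 30 bromodomain readers, 30 G2/M mitotic genes, 26 origin licensing and firing genes, 13 replication-dependent histone genes, 43 cytosolic ribosomal proteins and 11 MITF and melanocyte genes passed. Since RNA was selected for poly(A) tails, the histone counts speak only for histone transcripts that carry such a tail. With replicate 1 alone 2 of the G2/M genes rose. Of 18 MAPK output genes CCND1 and DUSP6 rose by 0.12 each, and each lost its call in 5 of the 6 fits that leave out a compared library. In the remaining lists CCL2 and TNFAIP2 fell of 24 NF-kB targets and secreted factors, CA9 and ALDOC of 23 hypoxia and glycolysis genes, SFN and PKP3 of 16 epithelial and keratinocyte genes, MT1E of 6 metallothioneins, HOXC13 of 36 HOX genes and SRM of 22 MYC and ribosome biogenesis genes. On leaving out a compared library, CCL2 lost its call in 2 of the 6 fits and TNFAIP2 in 1. Of 9 leukocyte and endothelial markers none passed, and their summed level was 56.4 to 60.1 CPM in the combination and 59.3 to 60.7 CPM in XL413.

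The rise with XL413 present had a counterpart without it. OF1 alone, against DMSO, raised 89 genes (0.58%) and lowered 87 (0.567%), 176 in all (1.15%). Leaving out any 1 of these 6 libraries gave 42 to 79 calls. Between the 524 genes of the first comparison and these 176, 78 were shared, all in the same direction, 50 risen and 28 fallen. The shared genes made up 14.9% of the first set and 44.3% of the second. Both sets rest on the same spread estimate for each gene, from all 12 libraries, so their calls are not independent. Among the risen, the shared genes were 30.7% of those called with XL413 and 56.2% of those called without it, and among the fallen 7.76% and 32.2%. Of the 163 genes risen with XL413, 156 had a positive log2 change with OF1 alone (95.7%, against 51.6% of all genes tested). Of the 361 fallen genes 201 had a negative one (55.7%, against 48.4% of all tested). Read the other way, 81 of the 89 genes risen with OF1 alone (91.0%, against 53.3% of all tested) were positive with XL413, and 85 of the 87 fallen were negative (97.7%). Of the 33 stable genes 29 also passed with OF1 alone, the exceptions being INHBE, SLC6A9, TRIB3 and C3. Across the 163 risen genes the log2 changes with and without XL413 correlated at r = 0.84, and across all genes at -0.04. These are correlations across genes, which are not independent replicates.

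Set side by side, the values with and without XL413 depend on which comparison chose the genes. The 27 stable genes risen with XL413 had a median log2 change of 0.46 with it and 0.27 without it, while the 89 genes risen with OF1 alone had 0.22 with XL413 and 0.26 without it, and 35 of the 89 had the larger change with XL413. The medians of the fixed lists were 0.50 with and 0.23 without XL413 for the enzymes, 0.30 and 0.13 for the regulators and 0.18 and 0.08 for the cytosolic synthetases, but 0.32 and 0.33 for the effectors and 0.10 and 0.11 for the carriers. ASNS was at 236, 242 and 238 CPM in OF1 and 154, 148 and 151 CPM in DMSO (log2 change 0.84 ± 0.03 with XL413 and 0.66 ± 0.03 without it), so its level with OF1 was alike in both settings and its level without OF1 was lower when XL413 was present. PSAT1 changed by 0.61 with XL413 and 0.40 ± 0.03 without it, and PHGDH by 0.50 with XL413 and 0.26 ± 0.04 without it. CHAC1 was at 6.97, 7.74 and 7.47 CPM in OF1 and 5.94, 5.49 and 3.91 CPM in DMSO, a log2 change of 0.53 ± 0.12. ATF4 did not pass without XL413 (0.13 ± 0.04, adjusted p = 0.147), nor did DDIT3 (0.07) or TRIB3 (0.13). Of the 15 amino acid and one-carbon enzymes 11 rose with OF1 alone, of 20 cytosolic synthetases 7 rose and VARS fell, and of 11 regulators CEBPG and NUPR1 rose. Of 15 effectors CHAC1, FAM129A, VLDLR, GDF15, VEGFA and GRB10 rose, and of 16 carriers SLC7A11 and SLC1A4. VLDLR and GRB10, which did not pass with XL413 at 0.33 and 0.32, had 0.46 and 0.42 without it. MMP3 fell by 0.89 ± 0.10 without XL413 and CPA4 by 0.41 ± 0.03, and OSCAR rose by 1.32 ± 0.17, all close to their changes with XL413. COL1A1 and MYH7 had 0.24 ± 0.21 and 0.57 ± 0.41 without XL413 and did not pass.

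**Figure D5:**
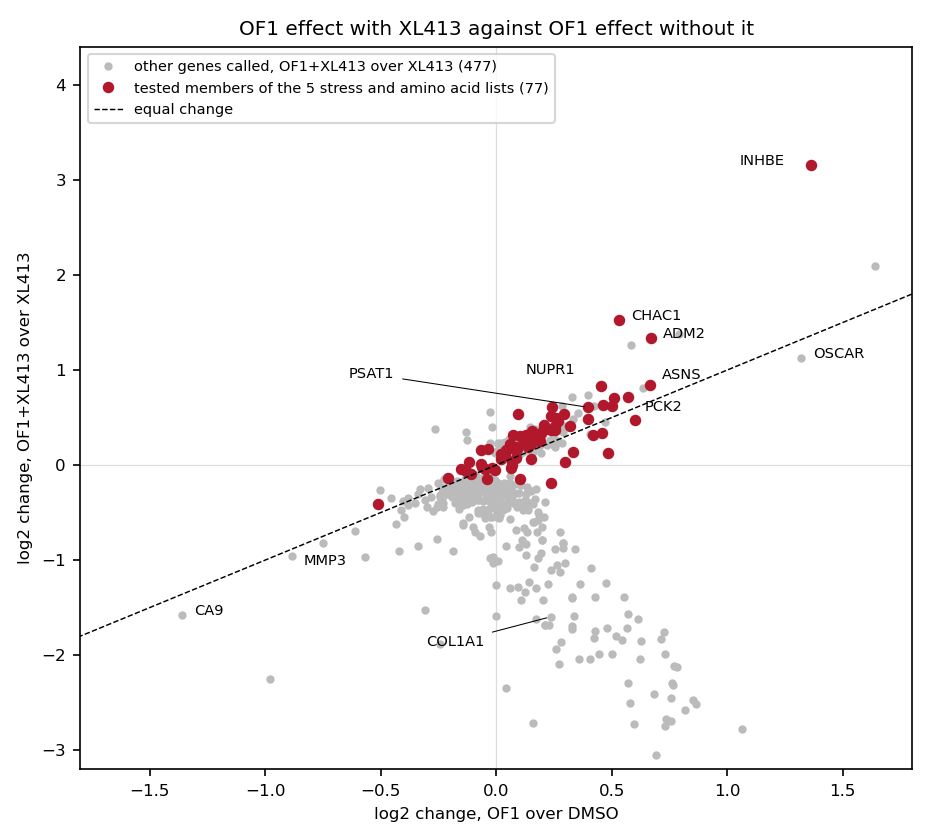
Log2 change of OF1+XL413 over XL413 (vertical axis) against that of OF1 over DMSO (horizontal axis) for the other 477 called genes and for the 77 tested members of the 5 stress and amino acid lists, with 2 called genes outside the range. Most list members lie above the line of equal change and right of 0, and the largest falls with XL413, COL1A1 among them, lie at changes near or above 0 without it.

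Whether the OF1 effect differed between cells with and without XL413 was tested directly, as the difference of both log2 changes. No gene passed with edgeR (0.0%, smallest adjusted p = 0.0797), while 1566 genes (10.2%) had an unadjusted p under 0.05 and DESeq2 called 109. Without combination replicate 1, the library least low in muscle transcripts of its group, edgeR called 362. The 6 genes of smallest p were NREP, ACTA2, COL1A1, SLN, LOXL1 and CHAC1, with adjusted p from 0.0797 to 0.0869. CHAC1, with a difference of 0.99 ± 0.17, was the only positive one among them, and COL1A1 had -1.83 ± 0.31. ACTA2 and SLN are smooth and skeletal muscle genes and LOXL1 crosslinks elastin. NREP, a neuronal regeneration protein, was at 22.9, 23.6 and 22.8 CPM in the combination and 27.3, 27.1 and 28.4 CPM in XL413, against 27.1, 29.1 and 28.8 CPM in OF1 and 25.2, 25.2 and 25.0 CPM in DMSO. Its libraries with OF1 were lower where XL413 was present (log2 change -0.26, adjusted p = 0.00495) and higher where it was not (0.17, adjusted p = 0.0745). For ASNS the difference was 0.18 ± 0.04 (unadjusted p = 0.000776, adjusted p = 0.118) and for PSAT1 0.21 ± 0.04 (adjusted p = 0.0896). Of the 27 stable risen genes 26 had a positive difference, with SEL1L3 as the exception. These genes were chosen for their change with XL413, which enters the difference, so the count is a description. Among all genes tested 52.5% had a positive difference.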

How the data were processed

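Per the submitters' processing notes, the tools were RSEM 1.2.15 and Bowtie2 2.1.0 with hg38 as build. Which annotation was used, and whether counting was by strand, is not given in the sources used here. Reads of overlapping and antisense genes may therefore not be told apart. The authors deposited expected counts (estimated read counts) for 26475 entries, not scaled between libraries. All were rounded, since 10.6% held a fractional part. Names that read as dates (28 entries) are not named.

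Genes passing filterByExpr were fitted in edgeR 4.0.16 (R 4.3.3) with TMM factors, a quasi-likelihood model with 1 mean per treatment over all 12 libraries (8 residual degrees of freedom) and its F test. A gene was called at a p under 0.05 after Benjamini-Hochberg adjustment over all genes. Standard errors were taken from F, as the size of the log2 change over its square root. Means and CPM use TMM library sizes. The contrasts were OF1+XL413 against XL413, OF1 against DMSO, and the difference of both. Alternatives were DESeq2 1.42.0, limma-voom (limma 3.58.1), other factors and filters, a replicate block, a muscle covariate (mean log2 CPM of the muscle fibre genes), combination replicate 1 alone, the compared libraries alone, a test against a 1.2-fold change and leaving out each library.

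The libraries compared, the 35 gene lists and the rules were chosen with earlier results of these data known, so no list is independent evidence. The rule for named genes took the 10 risen and 10 fallen of largest fold among called genes free of overlap and not under an average log2 CPM of 1. It took the same among those of them that also pass with replicate 1 alone and with the covariate. With no limit on level or overlap it added up to 6 called members per list. It also took the 6 genes of smallest p for the difference, and the targets with DBF4 and MCM2. Other names are list members, or stated as chosen after their values were seen.

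The fit was tested on simulated counts (200 of 15353 genes changed, 3 runs). For OF1+XL413 against XL413 it called 74.1% of genes changed 1.3-fold, 92% of those at 1.5-fold and 99% of those at 2-fold. Among 45459 unchanged genes, of any level, it made 30 calls. Counts were drawn independently for each gene and library. A shift shared by many genes of a library, as in combination replicates 2 and 3, was therefore not simulated, and the calls it could bring are unknown. Replicates differed by more than counting noise (chi-square per degree of freedom 2.33 to 14). Symbols were matched to RefSeq (GRCh38.p14) for 25285 entries.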

Additional observations from a re-analysis of the deposited data

How the results depend on the processing

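For OF1+XL413 against XL413 the 524 calls became 33 with the muscle covariate, which differs between the treatments itself, 155 with combination replicate 1 alone and 33 in the test against a 1.2-fold change. Leaving out 1 library gave 168 to 828 calls, with 828 without combination replicate 1, 168 without combination replicate 2 and 191 and 197 without XL413 replicates 1 and 2. The 0 calls for the difference of OF1 effects became 132 without a filter, 109 with DESeq2, 1 with combination replicate 1 alone and 0 to 362 with 1 library left out, the highest without combination replicate 1, with 6 without DMSO replicate 3 and 1 without XL413 replicate 3 or DMSO replicate 1. For OF1 against DMSO the 176 calls became 357 with DESeq2, 62 with the covariate and 42 to 79 with 1 library left out. MYBPH and TNNC1 changed sign with the covariate, both at 0.13. The cause of these shifts was not tested. Other factors, filters and limma-voom kept the count for OF1+XL413 against XL413 between 524 and 641, and the compared libraries alone gave 360. Of the 107 called genes named by rule, 79 lost their call with the covariate and 54 with replicate 1 alone.

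Replicate numbers showed no clear pairing within the 2 comparisons. Deviations of same-numbered libraries correlated at -0.0072, -0.081 and -0.043 between OF1+XL413 and XL413, and at 0.033, -0.13 and 0.1 between OF1 and DMSO. Other pairs of treatments were not checked, so a shared replicate structure among them is unknown. With the replicate block 476 genes were called for OF1+XL413 against XL413, 2 for the difference and 126 for OF1 against DMSO. Genes changed less than 1.3-fold were not simulated, so recovery of the smallest changes is unknown.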
